A study of Mus musculus with 19 samples.

Results

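The genes described here are the 7 mouse sirtuins, Sirt1 to Sirt7, and Nampt. Their rows were taken by symbol alone, and all 8 were found among the 24552 genes of each of 2 expression tables, 1 for the cornea and 1 for the conjunctiva. Sirtuins are enzymes that take acyl groups such as acetyl off proteins and consume a molecule of NAD each time. Nampt makes the precursor from which most cells rebuild NAD out of nicotinamide, so it is among the enzymes that affect how much NAD the sirtuins can draw on. Both are among the proteins most often named in work on calorie restriction, and in liver the circadian activators CLOCK and BMAL1 drive Nampt transcription while SIRT1 acts back on the clock.

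All libraries came from female C57BL/6J mice that ate ad libitum (AL) or were calorie restricted (CR), and the question was whether the diet changed the transcripts of the ocular surface. The cornea had 5 AL and 5 CR libraries and the conjunctiva 4 AL and 5 CR libraries. The study used 2 cohorts, kept at different sites on different chows, and the labels do not say which of them gave these libraries. CR was introduced gradually in both. Only for the second cohort is it stated that the food was cut in weekly steps and given once a day shortly before lights went off. In that cohort the CR chow was also enriched in vitamins and micronutrients over the AL chow. There, the amount eaten and the make-up of the food cannot be told apart. Per the paper, CR began in adult mice and was kept up for months, and its methods give the degree, length and ages. The titles carry the tags 6M and 50W without explaining them. The study's design text calls the mice young, and its report calls them adult, middle-aged and, in its discussion of the cornea, young. Corneal epithelium was scraped from the eye and conjunctiva was cut out, so the conjunctival samples also held stroma and, in these data, muscle. Several tissues were taken per mouse, and the labels do not say that a number marks the same animal in both tissues. No gene was altered in these mice.

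The cornea libraries held 10354125 to 14681223 counted reads and the conjunctiva libraries 10726717 to 14433441. The cornea libraries carried the corneal keratin Krt12 at 179846 to 340965 normalized counts, against 436 to 5139 in the conjunctiva. Muc5ac, the goblet cell mucin, was at 2328 to 6593 normalized counts in the conjunctiva and at 0 to 43.3 in the cornea. The share of genes with 0 reads in the cornea was 40.5% ± 2.70 (SD, n = 5) under AL and 44.4% ± 3.06 (SD, n = 5) under CR, with a p of 0.0714 by a two-sided exact permutation test. The 8 genes of a lacrimal gland list, of which 6 averaged at least 10 normalized counts, summed to 78.7 to 5801 (median 241) over the cornea AL libraries and to 48.3 to 395 over the CR libraries. On the share of genes without reads, AL 4 was the highest cornea AL library (45.2%) and CR 1 the lowest CR library (39.9%). Both lay within the range of the other diet, but so did AL 5 (40.7%) and CR 4 (42.7%). The cornea values are also given without AL 4 and CR 1, a pair chosen after seeing the data, and leaving it out widens the gap between the diets in that share. Some cornea values are given after adjustment for the share. Its mean differed between the diets, so that adjustment can also take out part of the diet contrast.

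A pair of promoter stretches is shown because the clock genes are the pathway genes that passed the test in these tissues, and because CLOCK and BMAL1 bind the E-box CACGTG. The sequences are RefSeq's for GRCm38.p6, written 5′ to 3′ on the gene's strand, with CACGTG in capitals. The stretch for Sirt1 lies at chr10:63339061-63339162 on the minus strand and that for Nampt at chr12:32820085-32820334 on the plus strand, and neither overlaps an annotated exon.
Sirt1: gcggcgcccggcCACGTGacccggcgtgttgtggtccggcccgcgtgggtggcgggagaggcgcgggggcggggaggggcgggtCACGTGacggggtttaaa
Nampt: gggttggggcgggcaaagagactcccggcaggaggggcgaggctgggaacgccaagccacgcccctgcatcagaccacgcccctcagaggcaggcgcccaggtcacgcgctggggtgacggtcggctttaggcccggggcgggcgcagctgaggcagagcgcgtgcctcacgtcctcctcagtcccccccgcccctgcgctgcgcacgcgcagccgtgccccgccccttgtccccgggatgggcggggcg
CACGTG reads the same on both strands. In Sirt1 it began 115 and 43 bases before the annotated start, and 8.09% of the 27025 genes in RefSeq's table had it in a promoter window (7.15% of 32851 windows). Sirt1 was the 1 gene of the 8 with this motif. The related CACGTT, searched on both strands (AACGTG on the other), was found for 5.44% of genes (4.68% of windows) and for 0 of the 8. A match is a description of the letters in this window, and the windows reach no further than the stretch from 250 bases before to 50 after the start. The Sirt1 stretch was cut around its matches, and binding of CLOCK or BMAL1 was not measured.

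None of the 8 genes passed the test used across all genes for a change with diet in either tissue. The test was limma on log2 normalized counts, and a gene was called when its Benjamini-Hochberg adjusted p was under 0.05 and its change over 1.5-fold. In the cornea 0 of 8 passed, where 1.22% of the 12278 genes tested did. In the conjunctiva 0 of 8 passed, where 0.359% of the 13929 genes tested did. At an unadjusted p under 0.05 the counts were 0 of 8 in the cornea (18.1% of all genes) and 1 of 8 in the conjunctiva (9.4% of all genes), that gene being Nampt. limma's voom model on recovered reads also called 0 in each tissue. Not passing does not show that a gene stayed the same. The 95% interval lay within a 1.5-fold change for 4 of the 8 genes in the cornea (39.7% of all genes). In the conjunctiva it did so for 1 of the 8 (34.4% of all genes). These were bulk samples, in which fewer cells of a type and less RNA per cell cannot be told apart.

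**Figure D1:**
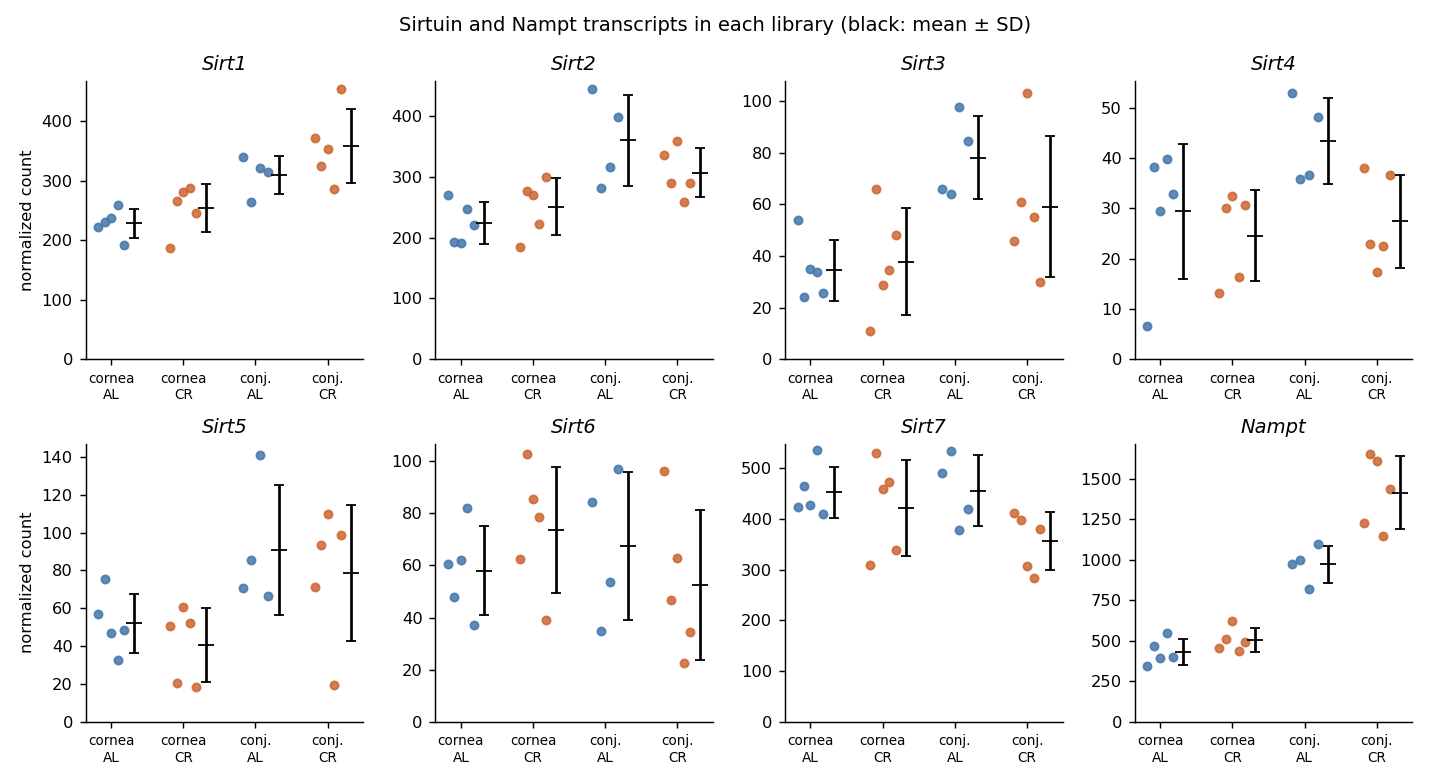
Normalized counts (y axes, linear from 0) of the 8 genes in each library of the cornea and conjunctiva under AL (blue) and CR (orange), with the mean ± SD of each group in black. In the conjunctiva the 5 CR libraries lie above the 4 AL libraries for Nampt, and the other genes overlap between diets in both tissues.

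Nampt, the first and limiting enzyme of NAD salvage, had the clearest separation. The gene lies on chromosome 12 at 32820335 to 32853369 on the plus strand, and no exon of another gene overlaps its exons. In the conjunctiva the 4 AL libraries had 974, 1002, 819 and 1097 normalized counts and the 5 CR libraries had 1228, 1652, 1612, 1146 and 1439.5. Every CR library lay above every AL library, as was the case for 1.92% of all genes tested there. Counted in either direction, the diets did not overlap for 1 of the 8 genes in the conjunctiva (3.87% of all genes) and for 0 of 8 in the cornea (3.97% of all genes). The means were 973 ± 115 (SD, n = 4) under AL and 1416 ± 225 (SD, n = 5) under CR. The log2 change was 0.53 with an SE of 0.15, a 95% interval of 0.22 to 0.85 and a limma adjusted p of 0.181. On the linear scale the fitted change was 1.45-fold, with an interval of 1.16 to 1.81. It therefore did not pass the test over all genes, in which it ranked 202 of 13929 by p.

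For Nampt in the cornea, the AL libraries had 342, 469, 391, 550.0 and 402 normalized counts. The CR libraries had 453, 509.8, 624, 438 and 491. The groups overlapped, since AL 4 exceeded 4 of the 5 CR libraries. The log2 change was 0.23, with a 95% interval of -0.08 to 0.54 and a limma adjusted p of 0.421. Without AL 4 and CR 1 it was 0.36, with an adjusted p of 0.115. That pair was chosen after seeing the data. AL 4 was also the highest AL library for Nampt, so leaving AL 4 out raises the change. After adjustment for the percentage of genes without reads the change was 0.036. The change was larger in the conjunctiva than in the cornea by 0.30 on the log2 scale, with an interval of -0.13 to 0.73. That difference had an adjusted p of 0.767 over the 11929 genes tested in both tissues, of which 0.0168% passed. At an unadjusted p under 0.05 the tissue difference held for 0 of the 8 genes and 7.48% of all. Where the 8 titles shared by both tissues were treated as pairs, the difference was 0.25, with an adjusted p of 0.944.

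Summed markers of other cell types are set beside these values for the same conjunctival libraries. Summed over the 5 genes of a fat cell list, of which 4 averaged at least 10 normalized counts, the AL libraries ran from 103 to 990 (median 302) and the CR libraries from 274 to 1401 (median 644). Fabp4 made up most of that sum on average, with a mean of 460 over the conjunctiva libraries, and Adipoq came next at 71.3. The 6 macrophage genes, all above that level, summed to 2324 to 3206 under AL and 1546 to 2367 under CR. The 6 fibroblast genes summed to 26814 to 41555 under AL and 18094 to 36344 under CR. The 5 skeletal muscle genes summed to 10518 to 46862 under AL and 12256 to 104562 under CR. The 6 neutrophil genes, of which 2 averaged at least 10 normalized counts, summed to 0.908 to 183 under AL and 34.3 to 188 under CR, with the defining gene Ly6g at 0 in every library. Whether these markers played a part in the Nampt values was not tested.

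Sirt1 is the nuclear deacetylase that acts on p53, FOXO factors and PGC-1α. It lies on chromosome 10 at 63319005 to 63339035 on the minus strand, and 1.22% of its exon bases are shared with the antisense gene Gm16145. Its cornea AL libraries had 222, 231, 237, 260.0 and 192 normalized counts, and the CR libraries 187, 266, 282, 288 and 246. In the conjunctiva the AL libraries had 339, 265, 321 and 315 and the CR libraries 372, 325, 353, 287 and 454. The diets overlapped in both tissues. The log2 change was 0.14 in the cornea (95% interval -0.20 to 0.48, adjusted p = 0.674) and 0.20 in the conjunctiva (-0.17 to 0.56, adjusted p = 0.771). Both intervals lay inside a 1.5-fold change in either direction, as did 39.7% of all intervals in the cornea and 34.4% in the conjunctiva. In the cornea the change was 0.30 without AL 4 and CR 1 (adjusted p = 0.242) and -0.0041 after adjustment for the percentage of genes without reads.

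**Figure D2:**
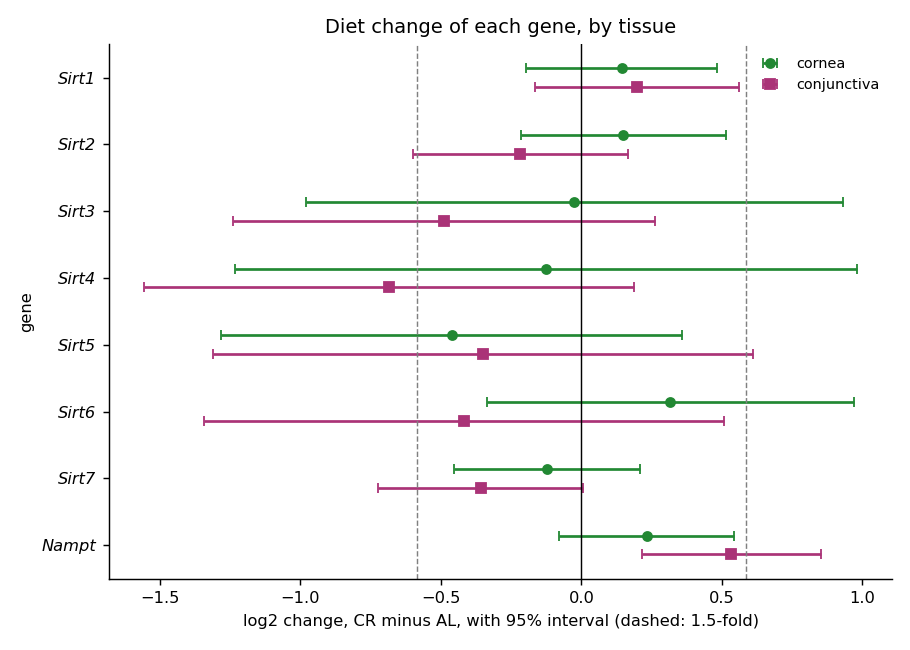
Log2 change, CR minus AL, of each gene (x axis) with its 95% interval from limma, for the cornea (green circles) and the conjunctiva (purple squares). Dashed lines mark a 1.5-fold change either way, and the interval for Nampt in the conjunctiva is the 1 of 16 that leaves out 0.

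Sirt7 is a nucleolar deacetylase tied to ribosomal RNA transcription. Sirt7 lies on chromosome 11 at 120618371 to 120625014 on the minus strand and shares 3.46% of its exon bases with Mafg and Mir6936 on the same strand. In the conjunctiva the AL libraries had 491, 534, 379 and 421 normalized counts. The CR libraries had 412, 399, 307, 284 and 380.1, so that 3 of the 5 lay within the AL range. The log2 change was -0.36, with an interval of -0.72 to 0.01 and a limma adjusted p of 0.537. Cornea AL libraries ran from 409 to 536 and the CR libraries from 309 to 531. The change there was -0.12 (-0.45 to 0.21, adjusted p = 0.715), and it turned to 0.044 without AL 4 and CR 1.

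Sirt6 is the chromatin-bound sirtuin that acts on histone H3 and in DNA repair, and Sirt2 is the mainly cytosolic enzyme that deacetylates tubulin. Sirt6 lies on chromosome 10 at 81621787 to 81627792 on the minus strand, and Sirt2 on chromosome 7 at 28766752 to 28788665 on the plus strand. They were the 2 genes whose change had opposite signs in the tissues. Sirt6 had 37.1 to 82.2 normalized counts under AL and 39.0 to 103 under CR in the cornea. In the conjunctiva it had 34.8 to 97.2 under AL and 22.5 to 96.4 under CR. The log2 changes of Sirt6 were 0.32 in the cornea (adjusted p = 0.619) and -0.42 in the conjunctiva (adjusted p = 0.821). Single libraries moved them: the cornea value was 0.17 without AL 5 and 0.52 without CR 7, and the conjunctiva value -0.16 without CR 4 and -0.69 without AL 3.

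Sirt2 had 191 to 271 normalized counts under AL and 184 to 299.99 under CR in the cornea, and 282 to 445 under AL and 259 to 359 under CR in the conjunctiva. Its log2 changes were 0.15 in the cornea (-0.21 to 0.51, adjusted p = 0.681) and -0.22 in the conjunctiva (-0.60 to 0.16, adjusted p = 0.758). In the cornea the Sirt2 change was -0.11 after the same adjustment. The tissue difference was -0.74 for Sirt6, with an interval of -1.83 to 0.36, and -0.37 for Sirt2, with an interval of -0.87 to 0.14. Neither passed, with adjusted p of 0.779 and 0.766.

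The mitochondrial sirtuins had the lowest mean normalized counts of the 8 in the cornea, whereas in the conjunctiva Sirt6 (67.5 under AL and 52.5 under CR) lay below Sirt3 (78.1 and 59.0) and Sirt5 (90.8 and 78.5). Sirt3 is the main deacetylase of the mitochondrial matrix, Sirt4 restrains glutamate dehydrogenase, and Sirt5 takes off succinyl, malonyl and glutaryl groups. Sirt3 lies on chromosome 7 at 140863663 to 140882309 on the minus strand, Sirt4 on chromosome 5 at 115478006 to 115490264 on the minus strand, and Sirt5 on chromosome 13 at 43365389 to 43395203 on the plus strand. A total of 12.7% of the exon bases of Sirt3 are shared with Ric8a and Psmd13 on the opposite strand. The labels name a stranded kit, and the paper's methods do not state whether the reads kept their strand.

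Sirt4 rested on 6 to 66 reads per library. In the conjunctiva its AL libraries had 53.1, 35.9, 36.6 and 48.1 normalized counts and its CR libraries 38.0, 22.8, 17.4, 22.5 and 36.6. Of the 5 CR libraries 3 lay below all AL libraries. The log2 change was -0.68, with an interval of -1.56 to 0.19 and a limma adjusted p of 0.639. Of the cornea libraries, the AL ones had 6.60, 38.2, 29.5, 39.8 and 33.0 and the CR libraries 13.1, 30.2, 32.6, 16.3 and 30.6. The single low AL library is AL 1. The change was -0.13 (-1.23 to 0.98, adjusted p = 0.926), 0.22 without AL 4 and CR 1, and -0.57 without AL 1.

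Sirt5 in the conjunctiva had 70.7, 85.3, 141 and 66.3 normalized counts under AL and 71.1, 93.3, 110.1, 19.5 and 98.6 under CR. The CR 4 library was the low one. The log2 change was -0.35 (-1.31 to 0.61, adjusted p = 0.858) and became 0.087 without CR 4. In the cornea Sirt5 had 32.7 to 75.4 normalized counts under AL and 18.6 to 60.6 under CR, with a change of -0.46 (-1.28 to 0.36, adjusted p = 0.557). That change was -0.73 without AL 4 and CR 1 and 0.13 after that adjustment.

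Sirt3 had 24.0 to 53.9 normalized counts under AL and 10.95 to 66.0 under CR in the cornea, and 64.0 to 97.9 under AL and 29.9 to 103 under CR in the conjunctiva. The log2 changes were -0.02 in the cornea (-0.98 to 0.93, adjusted p = 0.985) and -0.49 in the conjunctiva (-1.24 to 0.26, adjusted p = 0.7105). Without AL 4 and CR 1 the cornea value was 0.35. The intervals of the 3 mitochondrial sirtuins all held both 0 and a 1.5-fold fall in both tissues. Their CV between libraries was 1.34 to 4.06 times the CV that counting alone would give at these read numbers.

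**Figure D3:**
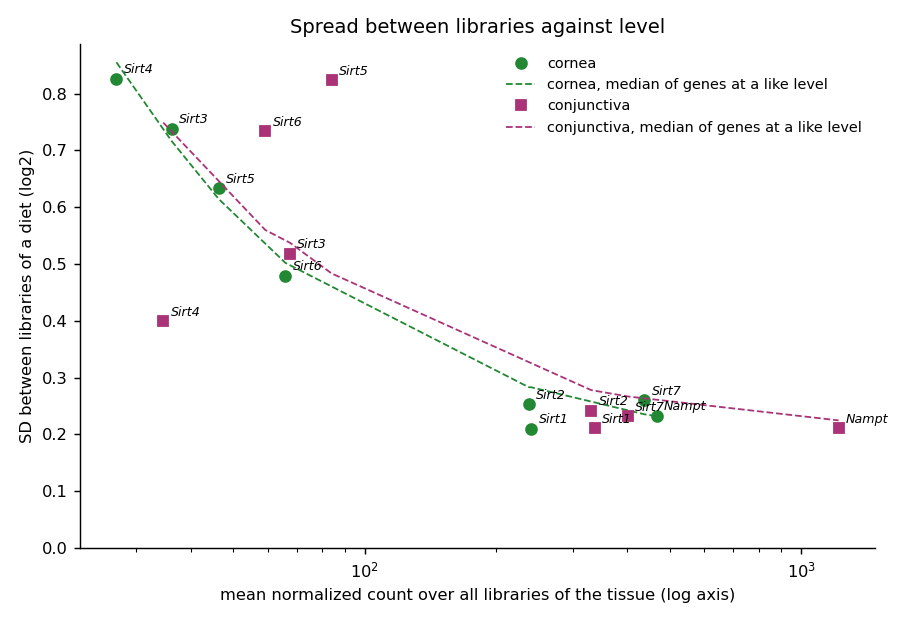
SD of log2 values between libraries of a diet (y axis) against the mean normalized count (x axis, log scale) for each gene in the cornea (green circles) and conjunctiva (purple squares). Dashed lines join the median SD of genes at a like level. Sirt5 in the conjunctiva, at an SD of 0.82, lies above the line, and Sirt4 in the conjunctiva, at 0.40, below it.

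The spread between libraries followed the level. The within-diet SD in the cornea, on the log2 scale, was 0.21 for Sirt1, 0.25 for Sirt2, 0.26 for Sirt7 and 0.23 for Nampt. It was 0.74 for Sirt3, 0.83 for Sirt4, 0.63 for Sirt5 and 0.48 for Sirt6. Genes of a like level had median SDs between 0.23 and 0.86, and the 8 genes lay between the percentiles 18.7 and 61.5 of them. In the conjunctiva Sirt5 (0.82, percentile 89.8) was more variable than most genes of its level and Sirt4 (0.40, percentile 5.65) less.

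Levels were compared between genes per kilobase of annotated exon, a scale that holds only where reads cover whole transcripts, on which the sources differ. The length was the union of the exons of all annotated transcripts of a gene, not of those expressed here. The order therefore also depends on the annotation. In the cornea under AL, Sirt7 (87.9 ± 9.94) and Nampt (85.2 ± 15.9) led and did not differ beyond their spread (SD, n = 5). Sirt2 (44.6 ± 6.86) and Sirt1 (42.8 ± 4.66) followed and also overlapped. Sirt6 (20.8 ± 6.08), Sirt4 (12.3 ± 5.59), Sirt5 (8.56 ± 2.57) and Sirt3 (5.77 ± 1.99) came last, each within the summed SDs of the next. By reads, Sirt7 made up 41.9% ± 1.94 of all sirtuin reads in the cornea under AL and the 3 mitochondrial sirtuins together 10.8% ± 1.49 (SD, n = 5).

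The tables were scaled separately, so levels across tissues are given as CPM of the counted reads, as a description. Nampt had 40.5 ± 7.52 (SD, n = 10) in the cornea and 99.4 ± 23.4 (SD, n = 9) in the conjunctiva, a ratio of 2.46 against a median of 1.15 over all genes. It was the 1 gene of the 8 with all 9 conjunctiva libraries above all 10 cornea libraries, as were 13.4% of all genes. For 6 of the 8 genes the ratio was above 1, as for 65.6% of all genes. Sirt3 (1.80) and Sirt5 (1.73) came next, and Sirt6 (0.861) and Sirt7 (0.869) were below 1, with overlapping libraries in every case.

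Genes around the sirtuins were followed in 6 lists. Of the NAD synthesis and salvage genes, 11 of 22 were tested in the cornea and 13 in the conjunctiva, and 0 were called. The smallest p in both tissues belonged to Naprt, which makes NAD from nicotinic acid. It had 257 to 352 normalized counts under AL and 199.8 to 247 under CR in the cornea, a log2 change of -0.39 with an adjusted p of 0.185. In the conjunctiva its change was -0.79 with an adjusted p of 0.447. Median changes of the list were -0.11 (cornea) and -0.01 (conjunctiva), against -0.03 and -0.02 over all genes.

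Of the enzymes that use NAD outside the sirtuins, such as the PARPs, 12 of 16 were tested in the cornea and 14 in the conjunctiva, and 0 were called. Parp2, a DNA repair enzyme, led in the cornea with a log2 change of -0.45 and an adjusted p of 0.186. Parp8 led in the conjunctiva with -0.93 and an adjusted p of 0.372. The medians of this list were -0.13 and -0.11.

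Among regulators and nuclear targets of SIRT1, 0 of 14 were called in the cornea and 0 of 16 in the conjunctiva. In the cornea, 2 had an adjusted p under 0.05, as did 1.53% of all genes at any fold change. Both changed by less than 1.5-fold. Usp22, a ubiquitin protease that stabilizes SIRT1, had 1426 to 1679 normalized counts under AL and 2004 to 2765 under CR, a log2 change of 0.54 with an adjusted p of 0.0191. Srebf1, a lipid synthesis factor that SIRT1 deacetylates, had 508 to 680.0 and 683 to 899, a change of 0.51 with an adjusted p of 0.0452. In the conjunctiva the changes were 0.30 for Usp22 (adjusted p = 0.524) and -0.34 for Srebf1 (adjusted p = 0.591). The smallest p there was that of the coactivator gene Ppargc1a, with 0.57 and an adjusted p of 0.420.

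Of the mitochondrial sirtuin substrates, 17 of 19 were tested in each tissue and 0 were called. In the conjunctiva 15 of the 17 had a positive change by sign, where 48.0% of all genes did, with a median of 0.18. The summed skeletal muscle genes in those libraries had medians of 44509 under AL and 55150.4 under CR. The fat cell genes, led by Fabp4, had medians of 302 and 644. The part of these markers in the positive changes was not tested. In the cornea 8 of 17 did, where 46.9% of all genes did, with a median of -0.02. Ogdh, a citric acid cycle enzyme, led in the cornea with -0.36 and an adjusted p of 0.0747. Shmt2, a serine pathway enzyme that SIRT5 desuccinylates, led in the conjunctiva with -0.44 and an adjusted p of 0.471. Of the zinc-dependent deacetylases, the other class of deacetylase, 0 of 10 were called in the cornea and 0 of 11 in the conjunctiva. Hdac5 led in the cornea with 0.81 and an adjusted p of 0.0747, and Hdac9 in the conjunctiva with -1.38 and an adjusted p of 0.562.

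The clock feedback genes were the exception. In the cornea 11 of 16 rose and 1 fell, with a median change of 1.03, and in the conjunctiva 10 of 16 rose and 0 fell, with a median of 1.34. Over all genes tested 0.749% rose and 0.472% fell in the cornea, and 0.223% rose and 0.136% fell in the conjunctiva. The genes that rose in both tissues were Per2, Per3, Cry2, Nr1d1, Nr1d2, Dbp, Tef, Ciart and Bhlhe41. Per1 and Bhlhe40 passed in the cornea alone and Hlf in the conjunctiva alone. In the conjunctiva the log2 changes were 1.55 for Per1 and 0.34 for Bhlhe40, and in the cornea that of Hlf was 0.26. The paper lists Per1 among the genes raised by CR in the conjunctiva. Per2, a repressor of CLOCK and BMAL1, rose from 154 ± 46.3 to 1208 ± 207 normalized counts in the cornea, and in the conjunctiva from 449 ± 149 to 1574 ± 279 (SD, n = 5, but 4 for conjunctiva AL), at log2 changes of 2.998 and 1.84. Bhlhe41, another repressor, rose by 4.21 and 2.55. Arntl, which encodes BMAL1, fell by 1.46 in the cornea, with an adjusted p of 0.0195. In the conjunctiva every CR library of Arntl lay below every AL library, at 0 to 34.1 against 144 to 233 normalized counts, with an adjusted p of 0.0937. The paper gives no hour of collection, and a shift in daily timing cannot be told apart from a change of level here. The paper names the eating pattern of CR mice as the likely driver of its circadian changes, which was not tested here.

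**Figure D4:**
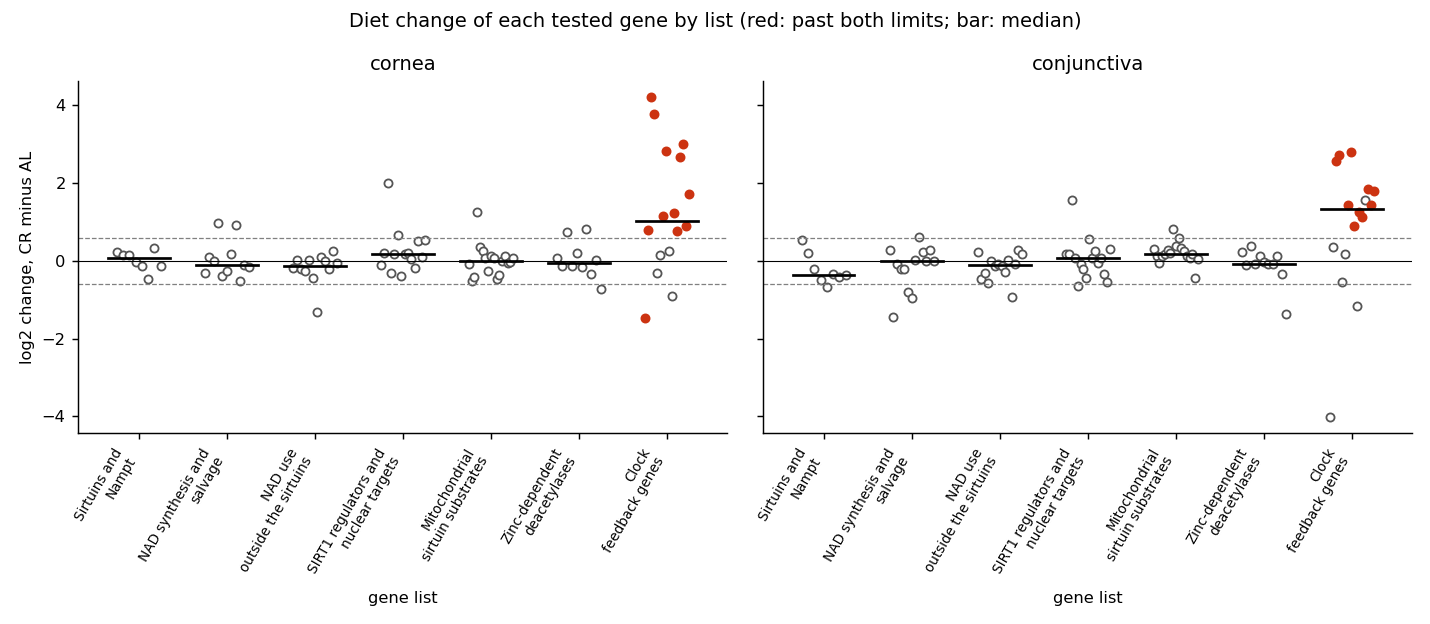
Log2 change, CR minus AL (y axis), of each tested gene of the 7 lists (x axis) in the cornea and the conjunctiva. Red points passed both limits, open points did not, bars are list medians and dashed lines mark a 1.5-fold change. Red points occur in the clock list alone, and the sirtuins and Nampt lie between -0.68 and 0.53.

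The genes whose log2 values followed each member most closely were found over the 19 libraries, after each tissue's mean was taken off. Nampt was closest to Cul3 (Pearson's r = 0.84) and Iars2 (0.80), Sirt1 to Rnf13 (0.85) and Trim7 (0.82), and Sirt2 to Ppp2r3d (0.83) and Axl (0.78). Sirt6 was closest to Cic (0.90) and Gm15706 (0.78), and Sirt7 to Sema4a (0.83) and Nectin1 (0.80). For the mitochondrial members these were Mrpl15 (0.78) and Srfbp1 (0.75) for Sirt3, Kank1 (0.76) and Zfp54 (0.76) for Sirt4, and Golph3 (0.90) and Lca5l (0.88) for Sirt5. These are the highest of 11929 values for each member, and the libraries share depth and diet. Between the members themselves, the 28 values of r ran from -0.17 (Sirt3 and Sirt5) to 0.60 (Sirt2 and Sirt3), with a median of 0.19.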

How the data were processed

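The authors trimmed single reads with cutadapt, aligned them to mm10 with STAR, counted them with HTSeq and scaled them by DESeq2's size factors within each tissue, per the study's methods. Versions are not given in the sources used here. The labels name GRCm39 and a stranded kit and the methods an oligo(dT) kit, and this was not settled. The deposited values are log2(normalized count + 1). All values (100%) were whole reads times a library constant, to within 0.01 read, and 3 reads equal 2.27 to 3.37 normalized counts.

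Genes averaging 10 or more normalized counts were tested within each table with limma 3.58.1 in R 4.3.3 (trend, robust), two-sided, with Benjamini-Hochberg adjustment over all genes tested. The tissue difference was the difference of both changes over its SE, with Satterthwaite degrees of freedom. Columns without a sample: 0. Of 24557 features, 5 repeated symbols were left out. Scripts were tested on simulated data. Motifs were searched in RefSeq promoters of GRCm38.p6 and exon overlaps in a GENCODE annotation of that build. The study counts its samples as mice, while the labels name no animal for a library, and p-values measure the spread between these libraries. The alternatives covered the pseudocount, the low-count filter, the normalization, the model, sample weights, a covariate, the replicate block, the threshold and each library in turn.

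The set of genes and the lists were proposed with earlier results of these data known, although the rule for the 8 uses symbols alone. The text names all 8 genes, each list's called genes and its gene with the smallest p in each tissue, and for each of the 8 the 2 genes with the highest r. Krt12, Muc5ac, Ly6g, Fabp4, Adipoq, the overlapping genes and Srebf1 were named outside that rule.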

Additional observations from a re-analysis of the deposited data

Results flagged for a closer look

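In 2 of the 32 groups of libraries examined, 1 library lay far from the others of its group by Dixon's ratio of gap to range, and chance alone flags about 1 in 20 groups. For Sirt4 in the cornea, AL 1 had 6.60 normalized counts (6 reads) and the other AL libraries 29.5 to 39.8, a ratio of 0.826. For Sirt5 in the conjunctiva, CR 4 had 19.5 normalized counts (19 reads) and the other CR libraries 71.1 to 110.1, a ratio of 0.745. The Sirt4 change in the cornea went from -0.13 to -0.57 on the log2 scale without AL 1, and the Sirt5 change in the conjunctiva went from -0.35 to 0.087 without CR 4.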

How the results depend on the processing

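The count of genes called among the 8 was 0 under all 23 alternatives in the cornea and all 21 in the conjunctiva, among them an adjusted p under 0.1 with no fold limit, and under all 22 for the tissue difference. With a minimum mean of 50 normalized counts, Sirt3, Sirt4 and Sirt5 were not tested in the cornea or for the tissue difference, nor Sirt4 in the conjunctiva. Of 316 single log2 changes under alternatives, 298 kept their direction and 18 turned, and 0 were past both limits. Nampt in the conjunctiva ran from 0.45 to 0.61, with adjusted p from 0.0589 (array weights) to 0.474. In the cornea Sirt3 turned to 0.016 with a pseudocount of 10, 0.0081 with quantile normalization, 0.022 with voom and 0.046 with array weights, and Sirt4 to 0.18 with quantile normalization. After adjustment for the percentage of genes without reads, which can also take out part of the diet contrast, Sirt1 turned to -0.0041, Sirt2 to -0.11 and Sirt5 to 0.13. Without AL 4 and CR 1 together, Sirt3 was 0.35, Sirt4 0.22 and Sirt7 0.044. Leaving out 1 library at a time moved Sirt3 in the cornea from -0.27 to 0.35, Sirt4 in the cornea from -0.57 to 0.066 and Sirt5 in the conjunctiva from -0.52 to 0.087. In the same way, with the direction kept, Sirt5 in the cornea ran from -0.64 to -0.23, Sirt3 in the conjunctiva from -0.72 to -0.28, Nampt in the cornea from 0.15 to 0.33, Sirt7 there from -0.21 to -0.02, Sirt1 from 0.08 to 0.25 and Sirt2 from 0.08 to 0.26, and in the conjunctiva Sirt1 from 0.11 to 0.27 and Sirt2 from -0.33 to -0.11. The cause of these turns was not tested.

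Calls over all genes depended on the libraries: 150 in the cornea became 705 with array weights and 62 after adjustment for genes without reads. They became 1212 without AL 4 and CR 1, the pair chosen after seeing the data. Leaving out 1 cornea library gave 536 (AL 4), 309 (CR 1), 182 (CR 4), 162 (CR 7), 67 (CR 2), 66 (AL 1), 62 (AL 3), 59 (AL 2), 58 (CR 3) and 53 (AL 5). The 50 in the conjunctiva became 149 with array weights. Leaving out 1 conjunctiva library gave 127 (CR 3), 76 (CR 5), 44 (CR 4), 41 (AL 3), 32 (AL 5), 29 (AL 4), 28 (CR 1), 27 (AL 1) and 26 (CR 2). The replicate block left 0 of the 8 genes called and 46 and 10 genes over all. Between AL and CR libraries of the same number, correlations of deviations spanned -0.30 to 0.29 for the cornea and -0.06 to 0.05 for the conjunctiva. They were not compared with those between different numbers, so they cannot decide whether a number marks shared handling. Sirt3 to Sirt6 rested on 6 to 131 reads per library, and their CV was 1.34 to 4.06 times that of counting alone.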

Other observations

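Within the sirtuin reads of a library, the share of Sirt1 in the conjunctiva was 22.0% ± 1.42 (SD, n = 4) under AL, from 20.4% to 23.8%, and 29.0% ± 3.37 (SD, n = 5) under CR, from 26.2% to 34.3%. In the cornea it was 21.1% ± 1.22 (SD, n = 5) and 23.1% ± 1.58 (SD, n = 5), with overlapping libraries. This share was picked after its values were seen, is raised by falls of the other sirtuins as well as by a rise of Sirt1, and was not tested.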
